A study of Homo sapiens with 25 samples.

Results

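The regions described here are 8168 stretches of the genome where the transcription factor NKX2-1 had a chromatin immunoprecipitation (ChIP-seq) peak in the lung adenocarcinoma lines NCI-H2087, NCI-H358 and NCI-H441 and none in HCC364. They were chosen by their NKX2-1 peaks alone, by merging overlapping NKX2-1 peaks of the 4 lines on chromosomes 1 to 22 and X into 145799 regions and keeping those that overlapped a peak of the 3 lines and no peak of HCC364. They made up 5.60% of all merged regions and 20.1% of the 40702 regions with a peak in those 3 lines, the other 32534 having a peak in all 4. Regions missing in a single line numbered 8168 for HCC364, 5704 for NCI-H2087, 8586 for NCI-H358 and 2498 for NCI-H441.

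All 4 lines are established cultures from human lung adenocarcinoma, grown without any treatment before fixation, and the study's title names the dosage of NKX2-1 as its subject. NKX2-1, the acetylated histone H3K27ac and the methylated histone H3K4me1 were profiled in HCC364, NCI-H2087, NCI-H358 and NCI-H441. A further 8 antibodies were used in NCI-H2087 alone, so co-occupancy is known for NCI-H2087 only. Each line is a single culture model, there is a single library per antibody in each, and a bulk culture cannot tell fewer bound cells from less binding per cell.

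NKX2-1 is a homeodomain transcription factor that specifies the lung from the foregut and keeps alveolar identity, and it is a lineage factor of many lung adenocarcinomas. It often binds with the forkhead factors FOXA1 and FOXA2, which can open closed chromatin. H3K4me1 marks enhancers, whether active or not, and H3K27ac marks active enhancers and promoters. EP300 is an acetyltransferase that deposits H3K27ac, c-Jun is a subunit of AP-1, SOX2 is a foregut and stem cell factor, H3K4me3 marks promoters, and CTCF binds insulators and loop anchors.

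Of the 34961 promoter windows in the RefSeq table (GRCh38.p14), each from 250 bases before a transcription start to 50 bases after it, 325 overlapped 264 of the regions missing only in HCC364. The windows were searched for sequence motifs: the NKX2-1 motif CACTNNAG and the forkhead motif TGTTTNC were searched on both strands, together with the AP-1 motif TGANTCA. The windows printed are the 3 with the highest NKX2-1 folds and that of FOXA1, which was added after the values were seen because it lies in the longest run of missing regions. They are the TBC1D14 window at chr4:6953916-6954215 on the plus strand, the LOC105379047 window at chr5:79547323-79547622 on the plus strand, the LOC102723838 window at chr11:102467005-102467304 on the plus strand and the FOXA1 window at chr14:37595200-37595499 on the minus strand. Each reads 5′ to 3′ in its own strand, and capitals mark a match to the NKX2-1 or forkhead motif on either strand.
TBC1D14: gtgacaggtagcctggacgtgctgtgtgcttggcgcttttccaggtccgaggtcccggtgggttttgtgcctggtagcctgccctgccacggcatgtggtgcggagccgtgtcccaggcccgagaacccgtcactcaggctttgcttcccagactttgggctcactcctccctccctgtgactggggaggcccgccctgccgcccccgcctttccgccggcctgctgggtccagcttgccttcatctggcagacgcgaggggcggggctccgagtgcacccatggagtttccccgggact
LOC105379047: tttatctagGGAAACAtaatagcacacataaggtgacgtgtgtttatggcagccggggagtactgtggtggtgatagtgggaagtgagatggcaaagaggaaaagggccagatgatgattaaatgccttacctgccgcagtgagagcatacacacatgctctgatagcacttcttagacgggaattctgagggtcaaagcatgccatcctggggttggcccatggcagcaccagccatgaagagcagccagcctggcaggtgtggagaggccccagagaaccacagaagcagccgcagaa
LOC102723838: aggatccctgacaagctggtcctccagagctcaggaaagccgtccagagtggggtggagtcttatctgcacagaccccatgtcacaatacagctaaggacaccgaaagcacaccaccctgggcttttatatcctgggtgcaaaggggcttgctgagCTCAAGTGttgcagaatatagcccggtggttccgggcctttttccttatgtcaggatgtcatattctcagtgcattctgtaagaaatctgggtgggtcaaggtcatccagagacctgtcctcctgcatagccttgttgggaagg
FOXA1: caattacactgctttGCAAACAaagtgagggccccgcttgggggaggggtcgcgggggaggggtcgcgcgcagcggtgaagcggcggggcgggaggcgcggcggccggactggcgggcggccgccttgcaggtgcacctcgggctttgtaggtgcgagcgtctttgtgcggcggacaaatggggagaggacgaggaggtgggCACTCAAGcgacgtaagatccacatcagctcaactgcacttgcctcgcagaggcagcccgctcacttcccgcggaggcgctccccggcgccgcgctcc

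The TBC1D14 window held neither motif and lay wholly inside the region. LOC105379047 held the forkhead letters GGAAACA 235 to 241 bases before its start, and LOC102723838 held the NKX2-1 letters CTCAAGTG 87 to 94 bases before its start, both inside the region. In the FOXA1 window only the first 46 bases belonged to a missing region. Those bases included the forkhead letters GCAAACA, whereas the NKX2-1 letters CACTCAAG, 41 to 48 bases before the start, lay outside it. The NKX2-1 motif was present in 16.3% of the 325 windows that overlapped a region missing only in HCC364, in 14.0% of 7197 windows overlapping a region bound in all 4 lines and in 13.1% of all promoters. The forkhead motif was present in 18.5% of the windows over missing regions, 14.5% of those over regions bound in all 4 lines and 18.0% of all promoters. For AP-1 the shares were 11.1% over missing regions, 8.16% over regions bound in all 4 lines and 7.68% of all promoters. No 2 matches overlapped in the printed windows, and a match is a stretch of letters, not a site.

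TBC1D14, a regulator of recycling endosomes and autophagy, had the strongest missing region on a promoter. Its folds, the authors' enrichment of the summit over local background, were 45.1 for NCI-H2087, 65.8 for NCI-H358 and 45.6 for NCI-H441. The region carried H3K27ac and H3K4me1 in NCI-H2087, NCI-H358 and NCI-H441 and neither mark in HCC364. In NCI-H2087 it also carried FOXA1, FOXA2, SOX2, c-Jun, EP300, RNA polymerase II and H3K4me3. LOC102723838 had folds of 36.8 for NCI-H2087, 28.1 for NCI-H358 and 30.1 for NCI-H441, with H3K4me1 but no H3K27ac in HCC364. The promoters of CELSR3, a cadherin of planar cell polarity, and LOC124904918 completed the 5 strongest, and both lacked H3K27ac in HCC364.

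The choice of the regions rests on NKX2-1 peaks, so their NKX2-1 values describe them and test nothing. Median folds at the missing regions were 9.07 for NCI-H2087, 8.59 for NCI-H358 and 10.4 for NCI-H441. At regions bound in all 4 lines they were 10.9 for NCI-H2087, 10.2 for NCI-H358 and 13.5 for NCI-H441. The missing regions thus had lower folds and were narrower, with a median width of 674 bp against 872 bp for regions bound in all 4 lines. Taking the lowest of the 3 folds at each region, the median was 6.75 at missing regions and 8.14 at regions bound in all 4 lines. Split into 5 groups of nearly equal size by that lowest fold, the regions bound in the 3 lines lacked an HCC364 peak at 2202 of 8143 in the weakest group, 24.8% in the next and 9.66% in the strongest. Strong regions were among them, though less often than among regions bound in all 4 lines. A fold of at least 10 in all 3 lines was found at 1633 (20.0%), against 36.6% of regions bound in all 4 lines. A fold of at least 20 was found at 198 (2.42%), against 8.55%. In all 3 lines, 2128 (26.1%) lay above 9.03, the median fold of the HCC364 list, which is another library of unknown depth. The 3 lines placed their summits close together, with a median spread of 46 bp and a spread within 100 bp at 80.0% of the regions.

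The nearest HCC364 NKX2-1 peak was a median of 7878 bp away, and 706 regions (8.64%) had one within 1 kb. At the inner edge of the rule, the region at chr10:60810393-60810884 lay 42 bp from an HCC364 peak. Just outside the rule, the region at chr1:116621410-116623480 was kept out by an HCC364 peak with a −log10 q of 3.02 and a fold of 2.96. The HCC364 list held 87160 peaks, against 75657 for NCI-H2087, 75747 for NCI-H358 and 90578 for NCI-H441. Read totals are not in the peak lists, so depth is unknown and its part in the missing calls was not tested. The genome-wide background solved from fold and p, under an assumed formula, was 2.54 fragments for HCC364, 2.65 for NCI-H2087, 2.72 for NCI-H358 and 2.85 for NCI-H441. Local background in 1 Mb bins, divided by the list median, had a median of 0.988 in HCC364 at missing regions and 1.00 at regions bound in all 4 lines. It was below 0.8 in HCC364 at 26.2% of missing regions and 19.9% of regions bound in all 4 lines. The other lines had less of a gap between these 2 kinds of region. The shares were 18.4% and 17.4% for NCI-H2087, 21.5% and 22.6% for NCI-H358, and 22.6% and 23.1% for NCI-H441. The cut of 0.8 is not alike between lines. In HCC364 it lay just above 0.783, the lowest value the solution can give there and the 5th percentile at missing regions. That percentile was 0.687 for NCI-H2087, 0.730 for NCI-H358 and 0.717 for NCI-H441. The part of local background and of peak strength in the missing calls was not tested.

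Both histone marks were scarcer in HCC364 at these regions than in any of the lines that bound them. H3K27ac was present at 11.4% of the regions in HCC364 (95% exact interval 10.7% to 12.1%), against 48.9% for NCI-H2087, 48.7% for NCI-H358 and 46.8% for NCI-H441. The same mark covered 34.6% of all merged regions in HCC364, 33.2% for NCI-H2087, 32.0% for NCI-H358 and 33.0% for NCI-H441, so the lines differed little over the whole set. HCC364 was as low at its other unbound regions, with H3K27ac at 11.1% of regions bound in 2 of the other lines. It was 10.1% at regions bound in 1 of them. The low share in HCC364 was thus not particular to the regions missing only there. HCC364 was 36.8 percentage points below the mean of the other 3 lines, which was 48.2% ± 1.18 (SD, n = 3 lines). H3K4me1 was present at 34.3% of the regions in HCC364, against 72.5% for NCI-H2087, 81.6% for NCI-H358 and 82.6% for NCI-H441. Over all merged regions it covered 49.1% for HCC364, 43.1% for NCI-H2087, 48.9% for NCI-H358 and 52.7% for NCI-H441. The difference in H3K4me1 was 44.6 points from a mean of 78.9% ± 5.53 (SD, n = 3 lines). HCC364 lay below the other 3 lines in both marks, and with 1 line against 3 the exact one-sided permutation p was 0.25 for each mark, the smallest this design allows. Intervals here and below cover counting error only.

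**Figure D1:**
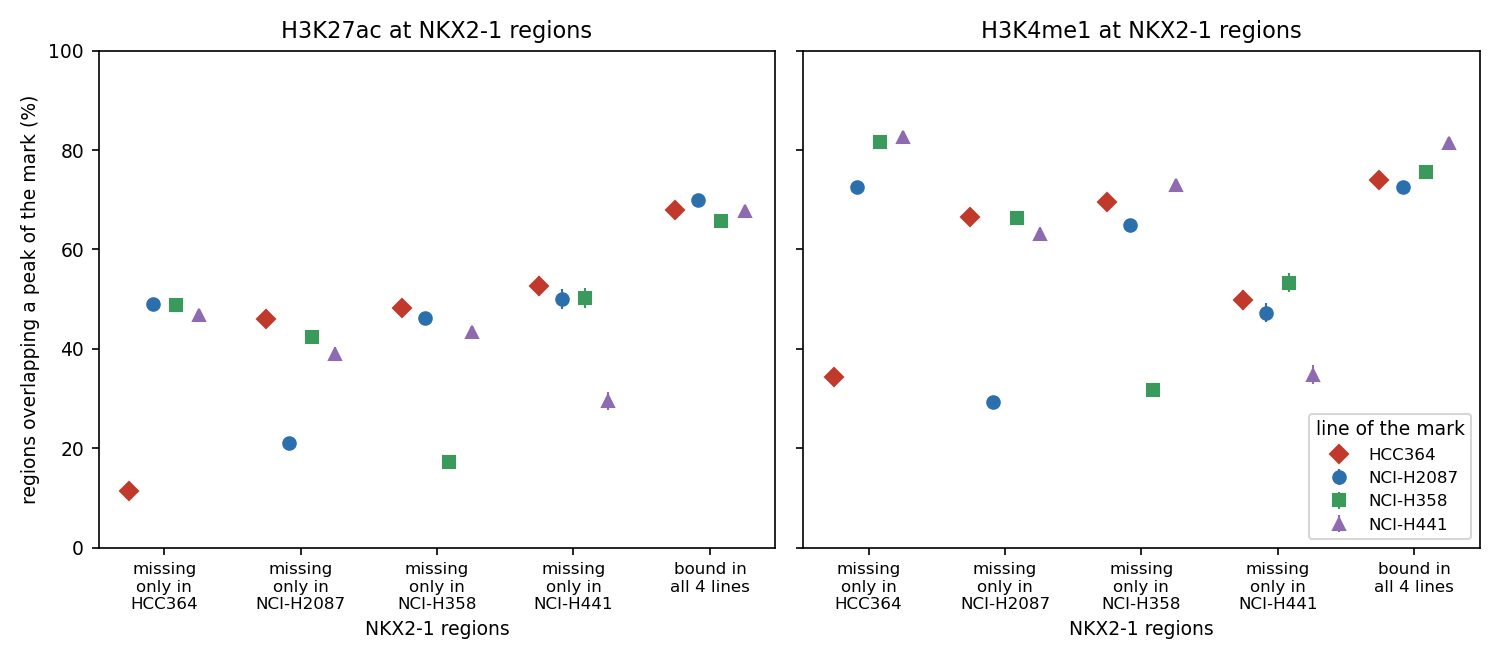
Share of NKX2-1 regions that overlapped an H3K27ac peak (left) or an H3K4me1 peak (right), in percent, in each of the 4 lines, for regions missing in a single line and regions bound in all 4; bars are exact 95% intervals for counting error. In each class missing in a single line, the line without NKX2-1 has the lowest share of both marks, and HCC364 stands at 11.4% for H3K27ac.

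The histone libraries of all 4 lines allowed a test that did not rest on HCC364 alone. For each class of regions missing in a single line, the share of regions with a mark in the lacking line was set against the mean of the 3 bound lines. H3K27ac was lower in the lacking line in 4 of 4 classes, by 36.8 points for regions missing only in HCC364, 21.5 for NCI-H2087, 28.8 for NCI-H358 and 21.5 for NCI-H441. The mean difference was −27.1 points ± 7.31 (SD, n = 4 classes), with an exact one-sided permutation p of 0.0417 over 24 assignments of the line labels, the smallest possible, and an adjusted p of 0.0417 over the 2 marks. H3K4me1 was lower by 44.6 points for regions missing only in HCC364, 36.1 for NCI-H2087, 37.4 for NCI-H358 and 15.3 for NCI-H441, a mean of −33.4 ± 12.6 (SD, n = 4 classes; exact one-sided permutation p = 0.0417, adjusted p = 0.0417). The 4 classes share the same 8 histone libraries. HCC364 had the largest of the 4 differences in both marks, but whether it exceeded those of the other lines was not tested.

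Most of the missing regions carried no mark in HCC364. Neither mark was found at 63.0% of them in HCC364, against 22.7% for NCI-H2087, 14.7% for NCI-H358 and 15.1% for NCI-H441. Both marks together were found at 8.61% for HCC364, against 44.1% for NCI-H2087, 45.0% for NCI-H358 and 44.5% for NCI-H441. H3K4me1 alone, a state with the enhancer mark but no acetylation, differed less, at 25.7% for HCC364, 28.4% for NCI-H2087, 36.5% for NCI-H358 and 38.1% for NCI-H441. HCC364 kept marks most often where the other lines all had them. Of 2640 missing regions with H3K27ac in all 3 other lines, 748 (28.3%) had it in HCC364 too, which left 1892 (23.2% of all 8168) acetylated in the 3 lines and not in HCC364. Where no other line had H3K27ac (2934 regions), HCC364 had it at 33, or 1.12%. For H3K4me1, 2434 of 5224 regions with the mark in the other 3 lines (46.6%) had it in HCC364. Where peaks of the marks were called at missing regions, their median fold was 8.44 for H3K27ac in HCC364 against 8.80 for NCI-H2087, 10.4 for NCI-H358 and 9.27 for NCI-H441.

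**Figure D2:**
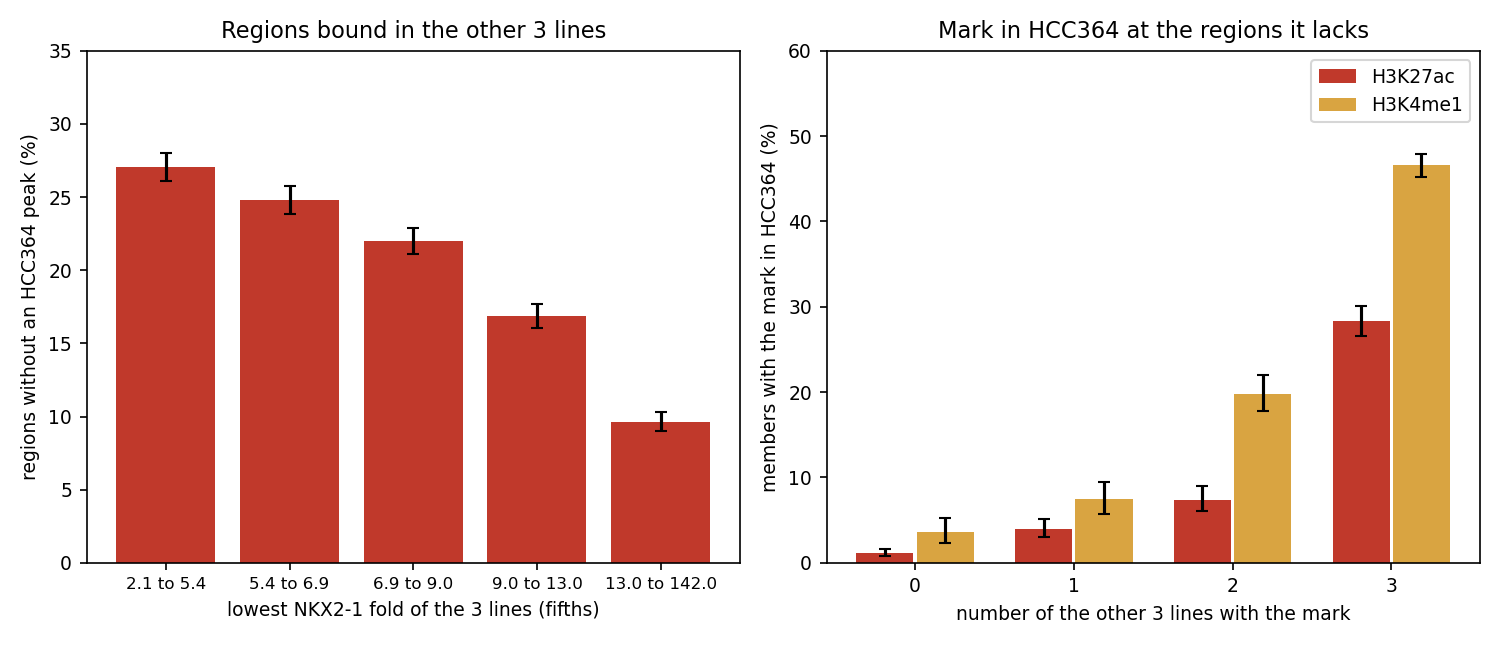
Left, share of regions bound in the other 3 lines that lacked an HCC364 peak, in percent, in 5 groups of nearly equal size by the lowest NKX2-1 fold in the 3 lines. Right, share of the missing regions with H3K27ac or H3K4me1 in HCC364, in percent, by the number of other lines with the mark; bars on both sides are exact 95% intervals. The left bars fall with strength, down to 9.66% in the strongest group, and the right bars climb to 28.3% for H3K27ac and 46.6% for H3K4me1.

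Promoters were rare among the missing regions, and there HCC364 kept more acetylation. Only 299 of them (3.66%) lay within 1 kb of a protein-coding transcription start, against 15.9% of regions bound in all 4 lines and 8.32% of all merged regions. Regions bound in 2 of the other lines and not in HCC364 were close to them, at 4.39%. At these 299 regions H3K27ac was present at 48.2% for HCC364, 84.3% for NCI-H2087, 81.6% for NCI-H358 and 81.6% for NCI-H441. Farther than 1 kb from a start it was present at 9.96% for HCC364, 47.6% for NCI-H2087, 47.5% for NCI-H358 and 45.5% for NCI-H441. The deficit in HCC364 was therefore seen at both kinds of position, and most of the 8168 regions were distal.

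In NCI-H2087, where partner factors were mapped, the missing regions held FOXA1 and FOXA2 more often than all merged regions did. By the rule, every missing region had an NKX2-1 peak in NCI-H2087, as did 74069 of the 145799 merged regions. Comparisons of NCI-H2087 factors with all merged regions, here and below, are therefore favoured by the choice of regions and test nothing. FOXA2 overlapped 69.3% of them and 63.2% of regions bound in all 4 lines, against a background of 36.2% of all merged regions. FOXA1 overlapped 63.2% of the missing regions and 60.7% of regions bound in all 4 lines, against 32.5% of all merged regions. FOXA1 or FOXA2 was present at 71.7% of the missing regions and 66.1% of those bound in all 4 lines. The difference in FOXA1 changed sign without regions near a start: farther than 1 kb from a start the share was 64.0% at missing regions and 64.8% at regions bound in all 4 lines, a reversed difference of −0.77 points. For FOXA2 the distal difference stayed positive at 2.51 points, against 6.10 points over all positions.

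Because NCI-H2087 is itself one of the lines that bound these regions, regions missing only in NCI-H358 or only in NCI-H441 were set beside them too. FOXA2 overlapped 69.3% of the regions missing only in HCC364 (exact interval 68.2% to 70.3%), 50.1% of those missing only in NCI-H358 and 41.6% of those missing only in NCI-H441. FOXA1 overlapped 63.2% of the regions missing only in HCC364, 45.2% of those missing only in NCI-H358 and 36.8% of those missing only in NCI-H441. Both differences were wider than the counting intervals, but each factor is 1 library and no test between classes was made. NKX2-1 strength in NCI-H2087 had the same order, with median folds of 9.07 for HCC364, 7.95 for NCI-H358 and 6.18 for NCI-H441. Median widths were 674, 660 and 598.5 bp. The part of strength and width in these shares, and in those of the other factors below, was not tested. Farther than 1 kb from a start the order was kept, with FOXA1 at 64.0% of regions missing only in HCC364, 47.4% for NCI-H358 and 39.9% for NCI-H441.

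SOX2 followed the forkhead factors, overlapping 14.8% of the missing regions and 13.9% of regions bound in all 4 lines, against 6.08% of all merged regions. Its distal difference from regions bound in all 4 lines was reversed, at −0.898 points. Against regions missing in another line it was higher, at 14.8% for HCC364, 6.98% for NCI-H358 and 4.20% for NCI-H441. The other 5 libraries had fewer peaks there than at regions bound in all 4 lines, but not always fewer than at other classes. c-Jun overlapped 23.5% of the missing regions and 44.0% of regions bound in all 4 lines (15.2% of all merged regions), while EP300 overlapped 7.52% of the missing regions and 16.7% of those bound in all 4 lines (4.87% of all). Against regions missing in another line, c-Jun stood at 23.5% for HCC364, 24.3% for NCI-H358 and 11.8% for NCI-H441, and EP300 at 7.52% for HCC364, 4.67% for NCI-H358 and 4.16% for NCI-H441. RNA polymerase II overlapped 15.2% of the missing regions and 36.7% of those bound in all 4 lines (15.4% of all), and farther than 1 kb from a start it was at 13.1% of the missing regions and 10.3% of all merged regions. H3K4me3 overlapped 9.59% of the missing regions and 27.8% of those bound in all 4 lines (14.5% of all). CTCF overlapped 11.9% of the missing regions and 28.4% of those bound in all 4 lines (19.7% of all), and it was lower still than at regions missing only in NCI-H358 (20.6%) or only in NCI-H441 (37.5%). None of the 8 further antibodies gave a peak at 1310 of the missing regions and at 6.76% of those bound in all 4 lines. FOXA1, FOXA2, SOX2, c-Jun and EP300 were all present at 253 of the missing regions (3.10%) and at 6.03% of those bound in all 4 lines. These shares depend on which peaks are used. With the 20000 strongest peaks per list, the NKX2-1 lists were cut, so a different and smaller set of regions counted as missing. Those regions had c-Jun at 56.3%, EP300 at 30.1%, SOX2 at 35.9%, RNA polymerase II at 26.1% and CTCF at 4.38%. The EP300 and SOX2 lists, with 7406 and 9262 peaks, stayed whole.

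**Figure D3:**
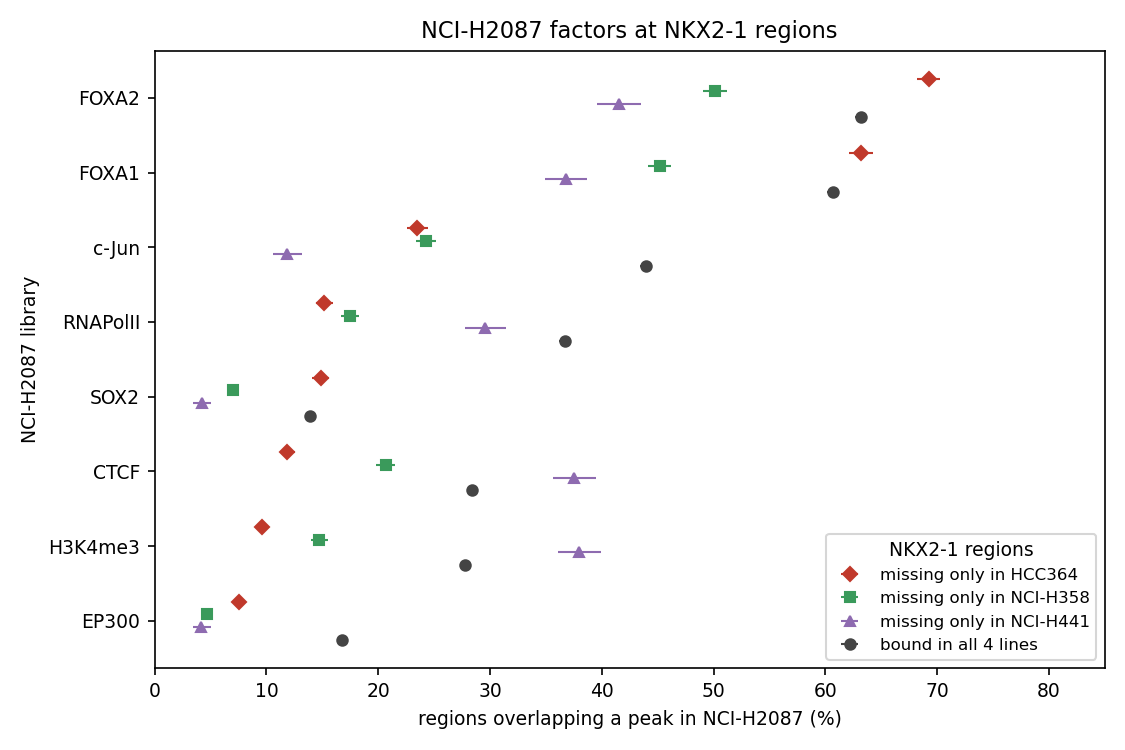
Share of NKX2-1 regions that overlapped a peak of each of the 8 further NCI-H2087 libraries, in percent, for regions missing only in HCC364, only in NCI-H358 or only in NCI-H441 and regions bound in all 4 lines; bars are exact 95% intervals. FOXA2 and FOXA1 reach 69.3% and 63.2% of the regions missing only in HCC364, while CTCF stays at 11.9% of them.

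The acetylation of HCC364 varied with the partner found in NCI-H2087. At missing regions with SOX2, H3K27ac was present at 6.77% for HCC364, 66.1% for NCI-H2087, 54.8% for NCI-H358 and 50.7% for NCI-H441. With both FOXA1 and FOXA2 it was present at 9.87% for HCC364, 55.3% for NCI-H2087, 52.0% for NCI-H358 and 49.0% for NCI-H441. With neither FOXA1 nor FOXA2 it was present at 15.4% for HCC364, 41.1% for NCI-H2087, 45.3% for NCI-H358 and 45.5% for NCI-H441. HCC364 was far below the other lines at each of these kinds of region. With EP300 it was present at 13.8% for HCC364, 87.8% for NCI-H2087, 73.3% for NCI-H358 and 73.5% for NCI-H441, and with c-Jun at 12.8% for HCC364, 74.8% for NCI-H2087, 65.0% for NCI-H358 and 61.5% for NCI-H441. Where RNA polymerase II was bound in NCI-H2087, HCC364 kept more, at 37.4%, against 93.7% for NCI-H2087, 90.6% for NCI-H358 and 91.2% for NCI-H441. Missing regions with H3K4me3, the promoter mark, were similar, with H3K27ac at 40.5% for HCC364, 86.0% for NCI-H2087, 85.6% for NCI-H358 and 84.0% for NCI-H441. The part of position near a start in these shares was not tested. The partner peaks come from NCI-H2087 itself, so its own values share their cells with them.

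FOXA1, the forkhead factor that recurs at these regions, had the longest run of them in and around its own gene. A run is a stretch of neighbouring regions, among those bound in NCI-H2087, NCI-H358 and NCI-H441, that all lack an HCC364 peak. Of the 8168 regions, 4671 (57.2%) stood alone, and 12 runs held 6 or more. The FOXA1 run held 9 regions over 87.4 kb at chr14:37554174-37641561, from beside MIPOL1 across FOXA1 into TTC6. NKX2-1 had no peak within it in HCC364, 13 for NCI-H2087, 12 for NCI-H358 and 15 for NCI-H441. One region lay over the promoter, centred 2.06 kb before the start, and 6 followed between 1.68 and 12.1 kb after it. The lowest of the 3 folds at these 9 regions lay between 3.48 and 10.8. The nearest regions that HCC364 bound lay 48.2 and 49.9 kb after the start, in MIPOL1, with HCC364 folds of 41.6 and 6.47.

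The active chromatin of FOXA1 was narrower in HCC364. Its H3K27ac peak at the gene spanned −1.33 to −0.196 kb relative to the start in HCC364, with a fold of 11.6. The NCI-H2087 peak spanned −5.14 to 12.3 kb with a fold of 56.5. That of NCI-H358 spanned −1.84 to 12.8 kb with a fold of 52.9, and that of NCI-H441 spanned −5.25 to 12.8 kb with a fold of 78.4. The promoter was thus acetylated in all 4 lines, and the start and gene body in the other 3 lines only. Within the run H3K4me1 had 2 peaks for HCC364, 8 for NCI-H2087, 9 for NCI-H358 and 10 for NCI-H441. FOXA1 protein itself had a peak in NCI-H2087 at 7 of the 9 regions, and FOXA2 at 6. Over all missing regions the shares in NCI-H2087 were 63.2% for FOXA1 and 69.3% for FOXA2. RNA polymerase II and H3K4me3 each had a peak in NCI-H2087 at 7 of the 9 regions. Over all missing regions their shares were 15.2% for RNA polymerase II and 9.59% for H3K4me3. Local background at the run was also lowest in HCC364, at 0.815 times the list median. It was between 1.42 and 2.26 times in the other 3 lines, and its part in the result was not tested.

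**Figure D4:**
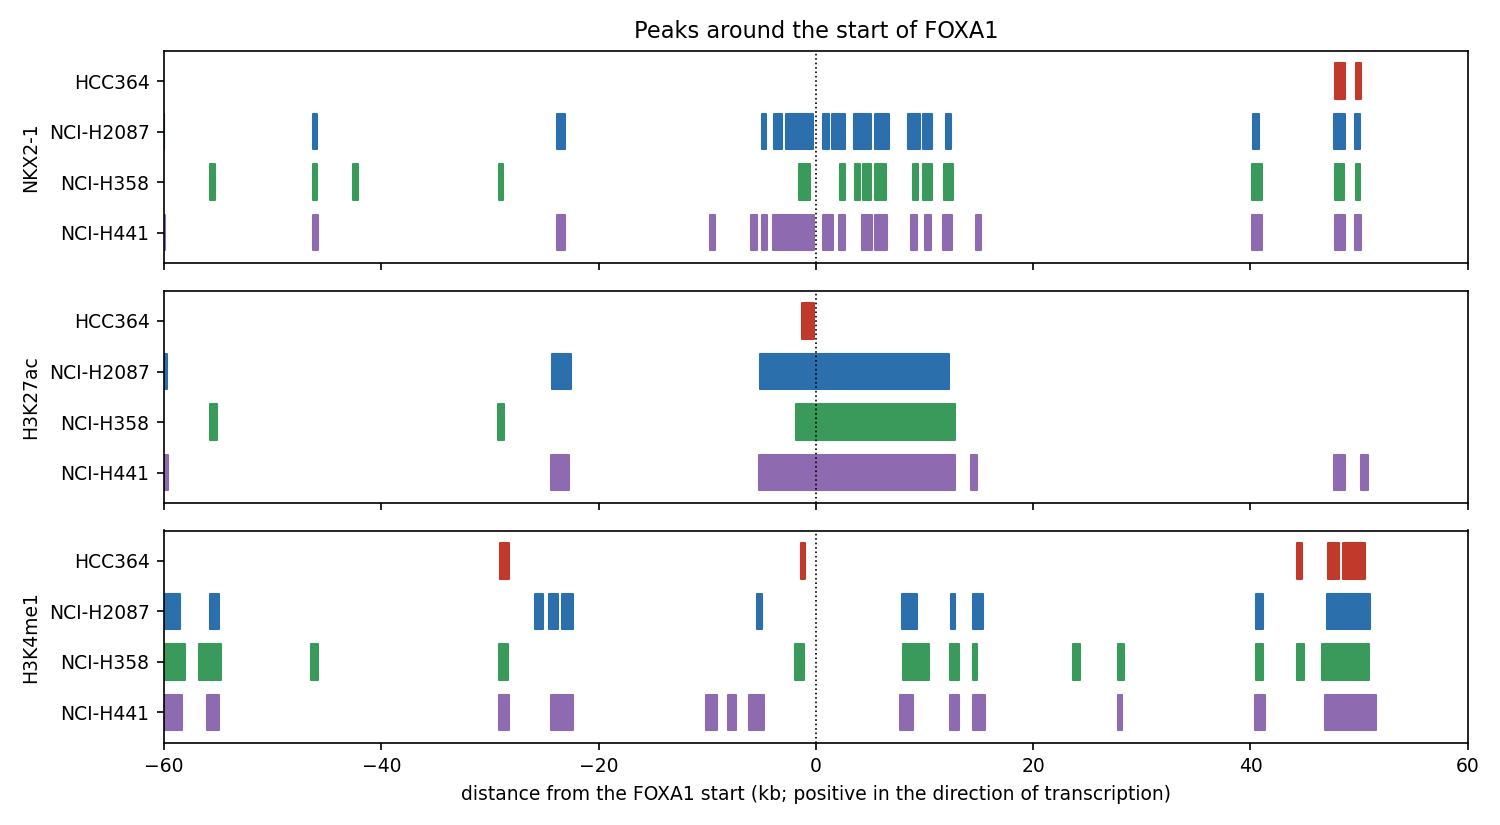
Peaks of NKX2-1, H3K27ac and H3K4me1 in the 4 lines around the start of FOXA1, by distance in kb, with positive values in the direction of transcription; each bar spans 1 peak. HCC364 has no NKX2-1 peak near the start and a single H3K27ac peak that ends at −0.196 kb, where the other 3 lines have acetylation over the gene.

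Further runs lay at genes of several kinds. The second, with 8 regions at chr6:105759011-105890991, was nearest to PRDM1, which encodes the repressor BLIMP1. In it NKX2-1 had 2 peaks for HCC364, 11 for NCI-H2087, 8 for NCI-H358 and 14 for NCI-H441, and H3K27ac had none for HCC364, 8 for NCI-H2087, 5 for NCI-H358 and 7 for NCI-H441. Runs of 7 lay over ITPRID2 and PPP1R1C, over MGST1, a membrane-bound glutathione transferase, and over PCNX1. A run of 6 lay over MUC16, the mucin known as CA125, at chr19:8935190-9042208. There HCC364 had no peak of NKX2-1, H3K27ac or H3K4me1, while the other lines had 6 to 11 NKX2-1 peaks, 4 to 7 H3K27ac peaks and 7 to 12 H3K4me1 peaks. Over OPRM1, the mu opioid receptor gene, and IPCEF1 a run of 6 held 2 NKX2-1 peaks for HCC364, 8 for NCI-H2087, 7 for NCI-H358 and 11 for NCI-H441. Near KCNK5, a potassium channel gene, the count was 1 for HCC364, 7 for NCI-H2087, 9 for NCI-H358 and 7 for NCI-H441. Relative background in HCC364 was 0.783 at PRDM1, KCNK5 and OPRM1 and 0.909 at MUC16, where 0.783 is the lowest value the solution can give. By chromosome, the share of regions bound in the 3 lines that HCC364 lacked ran between 14.9% on chromosome 22 and 27.2% on chromosome 13, with 26.7% on chromosome 6.

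The 10 missing regions with the highest folds lacked H3K27ac in HCC364, where 11.4% of all missing regions had it. The highest was at chr11:88183065-88183883, 7621 bp from RAB38, a small GTPase of lysosome-related organelles, with folds of 51.7 for NCI-H2087, 60.9 for NCI-H358 and 66.4 for NCI-H441. It had both marks in NCI-H2087, NCI-H358 and NCI-H441 and neither in HCC364, and none of the 8 further NCI-H2087 antibodies. The region at chr1:117570697-117571839, 34208 bp from the poly(A) polymerase gene TENT5C, had folds of 45.4 for NCI-H2087, 45.4 for NCI-H358 and 46.3 for NCI-H441. It carried FOXA1, FOXA2, SOX2, c-Jun and EP300 in NCI-H2087, as did a region inside ACVR1, a type I receptor for bone morphogenetic proteins, at chr2:157825633-157826609. The ACVR1 region had folds of 54.9 for NCI-H2087, 41.4 for NCI-H358 and 51.4 for NCI-H441. In both, HCC364 lacked H3K27ac and H3K4me1. A region inside BMPR1B, another receptor of that family, at chr4:94909410-94910482 was acetylated in NCI-H358 only, although its folds were 42.6 for NCI-H2087, 59.5 for NCI-H358 and 44.6 for NCI-H441. Some strong regions had both marks in HCC364. That inside CSNK1A1, a kinase of the Wnt pathway, at chr5:149492926-149494537 had folds of 56.7 for NCI-H2087, 36.6 for NCI-H358 and 49.3 for NCI-H441 and carried H3K27ac and H3K4me1 in all 4 lines, HCC364 included.

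Genes near the missing regions were found by taking every protein-coding gene with a region inside it or within 50 kb of an annotated end. Such genes numbered 7829 of 19974, or 39.2%, which is the background for the lists below. Single regions were assigned to the nearest gene within that distance, and 6465 (79.2%) had one. LPP, a focal adhesion protein, had the most with 15, then GSE1, part of a histone deacetylase complex, and NAALADL2 with 12 each and MECOM, a zinc finger transcription factor, with 11. MAML2, a coactivator of Notch, and SLC25A21, a mitochondrial carrier, had 10 each. Many of these genes are long and were also well bound in HCC364. At LPP there were 47 NKX2-1 peaks for HCC364, 63 for NCI-H2087, 52 for NCI-H358 and 78 for NCI-H441. At MECOM there were 16 for HCC364, 39 for NCI-H2087, 35 for NCI-H358 and 32 for NCI-H441, with an acetylated gene end in NCI-H2087 and NCI-H358 only.

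HCC364 was lowest of the 4 lines at 15 of the 20 genes with the most missing regions, an order that the choice of genes favours. At RERE, TENM4, MGST1 and WWC1 another line had fewer peaks. MGST1 had 35 for HCC364, 43 for NCI-H2087, 15 for NCI-H358 and 33 for NCI-H441, and 9 regions nearby were bound only in HCC364. No region bound only in HCC364 lay near RNF144B, MUC16, PKHD1 or PPP1R1C. RNF144B, a ubiquitin ligase with 8 missing regions, had 6 NKX2-1 peaks for HCC364, 17 for NCI-H2087, 19 for NCI-H358 and 17 for NCI-H441. PKHD1, the ciliary protein fibrocystin, had 4 for HCC364, 15 for NCI-H2087, 15 for NCI-H358 and 23 for NCI-H441. RUNX2, a runt-domain transcription factor, had 7 for HCC364, 18 for NCI-H2087, 20 for NCI-H358 and 24 for NCI-H441, yet its gene end was acetylated in all 4 lines.

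**Figure D5:**
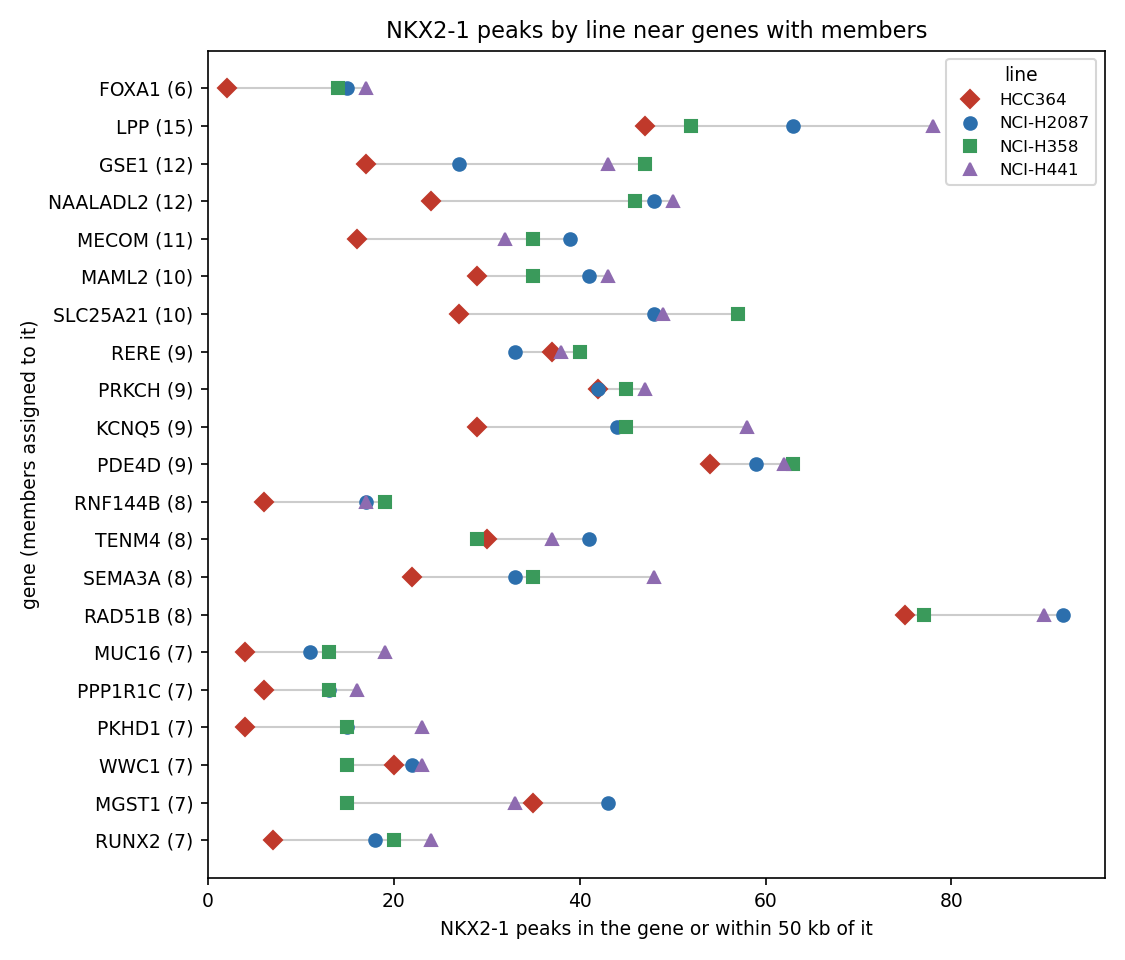
Number of NKX2-1 peaks inside or within 50 kb of FOXA1 (top row) and of the 20 genes with the most missing regions, in the 4 lines; the number assigned to each gene stands in brackets. FOXA1 has 2 peaks in HCC364 and 14 to 17 in the other lines, while MGST1 and WWC1 have more peaks in HCC364 than in NCI-H358.

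HCC364 had no NKX2-1 peak within 50 kb at 148 of the 7829 genes with a missing region and at 1040 of all 19974 genes (5.21%). Of the 148, SNCAIP, which encodes synphilin, and ZNF730 had the most missing regions assigned as the nearest gene, 3 each. SNCAIP had 3 peaks for NCI-H2087, 9 for NCI-H358 and 4 for NCI-H441, and ZNF730 had 4 for NCI-H2087, 5 for NCI-H358 and 9 for NCI-H441. CYSLTR1, a receptor for cysteinyl leukotrienes, TXNDC5, a disulfide isomerase of the endoplasmic reticulum, and GPR12, an orphan receptor, followed with 2 assigned regions each. ARSD, IQANK1, MS4A12, SNURF and VN1R4 also had 2 each. The ends of ZNF730, TXNDC5, IQANK1 and SNURF were acetylated in all 4 lines, HCC364 included. Those of SNCAIP, CYSLTR1, GPR12, MS4A12 and VN1R4 were acetylated in none. The end of ARSD was acetylated in NCI-H2087, NCI-H358 and NCI-H441 and not in HCC364.

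Acetylation of gene ends gave a further view of the same neighbourhoods. There were 199 protein-coding genes (0.996%) with H3K27ac within 1 kb of an end in NCI-H2087, NCI-H358 and NCI-H441 and none within 5 kb in HCC364. Of them 150 (75.4%, exact interval 68.8% to 81.2%) had a missing region inside or within 50 kb. The share was 46.4% among 9870 genes acetylated in all 4 lines. It was 81 of 324 among genes acetylated in HCC364 and in none of the others, and 23.6% among 5126 genes acetylated in no line. These groups differed in NKX2-1 regions nearby, with a mean of 2.96, 3.88, 1.99 and 1.31 regions bound in all 4 lines. Missing regions made up 33.9%, 16.2%, 15.5% and 21.1% of missing regions and regions bound in all 4 lines together, in the same order. Median gene lengths were close in the first 2 groups, at 28.1 and 28.3 kb, and were 42.0 and 13.8 kb in the others. RNF144B led with 8 regions. ANK3, an ankyrin of the lateral membrane, MYO5B, a motor of apical recycling endosomes, SYT7, a synaptotagmin, and FAM178B had 5 each assigned as the nearest gene, and 7 lay within 50 kb of MYO5B. For ANK3 the number was 2 without regions that have an HCC364 peak within 1 kb. GRHL2, a transcription factor that maintains epithelia, had 4 missing regions, with 18 NKX2-1 peaks for HCC364, 25 for NCI-H2087, 21 for NCI-H358 and 21 for NCI-H441. KRT78, a keratin, and PLA2G4A, a phospholipase that releases arachidonic acid, also had 4 each.

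By gene list, epithelial genes had missing regions most often. Of 14 simple epithelial keratin and junction genes 13 had one, led by KRT8 with 6, most of them nearest to neighbouring genes, and DSP, which encodes desmoplakin, with 4. Their missing regions made up 17.5% of missing regions and regions bound in all 4 lines together, beside 17.5% over all genes. The gene end was acetylated for 12 of the 14 in HCC364 and for all 14 in each of the other lines. The 2 without it in HCC364 were CLDN7, a claudin, and ESRP1, a splicing regulator of epithelia. Of 20 foregut and lung transcription factors 11 had a missing region, 33 counted gene by gene, or 27.5% of those missing or bound in all 4 lines. FOXA1 held 9 of the 33, FOXP1 6, ELF3 and GRHL2 4 each and KLF5 3. KLF5, a factor of epithelial progenitors, had 4 NKX2-1 peaks for HCC364, 8 for NCI-H2087, 12 for NCI-H358 and 15 for NCI-H441. NKX2-1 and SOX2 had 1 missing region each, and FOXA2 and SOX9 had none. FOXA2 was thin in every line, with 5 peaks for HCC364, 3 for NCI-H2087, 1 for NCI-H358 and 2 for NCI-H441.

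Of 10 basal and squamous genes 7 had a missing region, and TP63, the master factor of basal cells, had 8. TP63 had 14 NKX2-1 peaks for HCC364, 20 for NCI-H2087, 36 for NCI-H358 and 37 for NCI-H441, and an acetylated end in NCI-H358 only. Alveolar type 2 genes were seldom near one, with 4 of 15. ABCA3, a lipid transporter of lamellar bodies, had 2, with 3 NKX2-1 peaks for HCC364, 5 for NCI-H2087, 7 for NCI-H358 and 10 for NCI-H441, and an acetylated end in HCC364 only. The surfactant genes SFTPA1, SFTPB and SFTPC had none. At SFTPA1 the rule allowed none, since NCI-H358 had no NKX2-1 peak within 50 kb. The other lines had 4 for HCC364, 7 for NCI-H2087 and 10 for NCI-H441. H3K27ac near an end of SFTPA1 was found for NCI-H441 and NCI-H2087 but neither for HCC364 nor for NCI-H358. SFTPC had 15 NKX2-1 peaks for HCC364, 3 for NCI-H2087, 16 for NCI-H358 and 9 for NCI-H441. SFTPB had 16 peaks for HCC364, against 14 for NCI-H2087, 8 for NCI-H358 and 20 for NCI-H441. Among alveolar type 1 genes 4 of 10 had one, among them HOPX with 3 and RTKN2 with 2. Acetylated ends numbered 6 of the 10 for HCC364, 8 for NCI-H2087, 7 for NCI-H358 and 7 for NCI-H441. Of the airway secretory genes, SCGB3A2, a secretoglobin, was the single one of 10, with no NKX2-1 peak in HCC364, 3 for NCI-H2087, 2 for NCI-H358 and 3 for NCI-H441.

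By number of genes with a missing region, signalling lists lay on both sides of the share of all genes. Missing regions were compared with missing regions and regions bound in all 4 lines together, where they made up 17.5% over all genes. That share was 11.3% for receptor tyrosine kinase and MAPK feedback genes and 11.0% for YAP and TEAD genes. It was 4.76% for TGF-beta genes, 17.5% for AP-1 genes and 19.2% for antigen presentation and checkpoint genes. Of 16 receptor tyrosine kinase and MAPK feedback genes 8 had a missing region, ERBB2 with 4 and ERBB4 with 3 leading, while EGFR had 1, MET 2 and ERBB3 none. ERBB2 had 9 NKX2-1 peaks for HCC364, 11 for NCI-H2087, 17 for NCI-H358 and 15 for NCI-H441. MYC had 3 missing regions and LMO3 had 1. Of 12 YAP and TEAD genes 7 had one. TEAD3, a DNA-binding partner of YAP, had no NKX2-1 peak in HCC364, 2 for NCI-H2087, 4 for NCI-H358 and 8 for NCI-H441. Acetylated ends numbered 10 of the 12 for HCC364, 10 for NCI-H2087, 10 for NCI-H358 and 8 for NCI-H441. Of 9 AP-1 genes 5 had one, BATF with 4 the most. The ends of 7 of the 9 were acetylated in HCC364 and of 8 in each of the other lines, and BATF made the difference. Antigen presentation and checkpoint genes had one at 6 of 12. Shares below the 39.2% of all genes were found for 3 of 10 TGF-beta genes, 4 of 14 gastric, intestinal and hepatic genes and 1 of 10 housekeeping genes, while 4 of 10 mesenchymal genes had one. No neuroendocrine gene of 10 had one. Within 10 kb in place of 50 kb the counts were lower for 10 of the 15 lists by more than 1.5 times, with 1 alveolar type 2 gene, 7 foregut and lung factors and 4 basal genes, and TP63 had 4 missing regions.

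The epithelial label of the 4 lines was checked by H3K27ac within 1 kb of gene ends. All 7 simple epithelial markers were acetylated in each of the 4 lines. Of the 3 lung lineage markers in the table, 3 were acetylated in HCC364, 3 for NCI-H2087, 2 for NCI-H358 and 3 for NCI-H441. Endothelial markers were acetylated in no line, and of 3 fibroblast markers none was in HCC364 or NCI-H358 and 1 was in NCI-H2087 and in NCI-H441. One of 3 leukocyte markers was acetylated in every line, CD14 in HCC364 and CD3E in the other 3. Of 10 mesenchymal genes the end was acetylated at 7 for HCC364, 4 for NCI-H2087, 6 for NCI-H358 and 5 for NCI-H441, and that of CDH2, a cadherin of mesenchymal cells, in HCC364 only. One of 3 neuroendocrine markers, SYP, was acetylated in HCC364 and NCI-H2087, and NCI-H358 and NCI-H441 had none.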

How the data were processed

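NKX2-1, H3K27ac and H3K4me1 were profiled in 4 lines and 8 further antibodies in NCI-H2087, which gives 20 peak lists of 25 samples. The 5 input libraries were not analysed here. Per the submitters' processing notes, the build was hg38 (GRCh38) and the tools named were MACS2 (versions 2.1.1 and 2.2.7.1), bedtools, SAMtools 1.9, Bowtie2 2.2.9 and Trimmomatic 0.36, whose roles are not given in the sources used here. The deposited lists hold 1 line per peak and are per library, so each line and antibody has 1 list. The fold of a peak in the deposited lists is the authors' linear ratio of the summit over local background. The deposited lists also give −log10 p and −log10 q of each peak, and their lowest −log10 q was just above 3. Read totals are not given in these lists, so the depth behind a peak is unknown and a missing peak may reflect depth, antibody or threshold.

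Peaks on chromosomes 1 to 22 and X were used, and those on Y and other contigs were left out. Peaks that overlapped by at least 1 bp were joined into regions. A line was taken as bound, or a mark as present, where any of its peaks overlapped a region by at least 1 bp. Local background was solved from fold and p within 0.01 of the written p, on the assumption that the fold is of pileup plus 1 over background plus 1, and was taken as the median of 1 Mb bins with at least 5 peaks. Genes came from the RefSeq table of GRCh38.p14 (19974 protein-coding genes), and transcription starts and strands from its promoter table. Distances to genes use either annotated end. SFTA3, a lung lineage marker of the list, was not matched to a protein-coding gene of the table.

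Shares have exact Clopper-Pearson 95% intervals. The exact one-sided permutation tests used the line as the unit, with 4 choices of line for HCC364 against the rest and 24 assignments of labels over the 4 classes, adjusted by Benjamini-Hochberg over 2 marks. Shares of factors, positions and gene lists have no test. The labels do not say whether libraries come from separate cultures. The members, gene lists and tests were chosen with earlier results of these data known. Named genes are the 20 with the most regions assigned (ties by share of regions, then symbol), the 10 with the most and no HCC364 peak within 50 kb, the 10 with the most among genes acetylated in the 3 lines and not in HCC364, the leading 3 per list, and 14 genes named regardless of rank. Named regions are the strongest by the lowest of 3 folds, with and without acetylation in HCC364, and the longest runs. CLDN7, ESRP1, CDH2, TEAD3 and KLF5 were picked after their values were seen. Alternatives were the 20000 strongest peaks, −log10 q of at least 10, summit windows of 500 bp, a mark within 1 kb, no HCC364 peak within 1 kb, factor summits within 250 bp, a 10 kb gene window, and each line or class left out in turn. Merging, the share difference of HCC364 and the p of the class test were checked on simulated data. A lower share of the mark was planted in each lacking line, and no case without a difference was simulated. The p of the HCC364 test was not checked in this way. Python 3.11.15, numpy 2.4.6, pandas 2.3.3, SciPy 1.17.1 and matplotlib 3.10.9 were used.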

Additional observations from a re-analysis of the deposited data

Results flagged for a closer look

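The share of the missing regions with H3K27ac in HCC364, 11.4%, stood far from the values of the other lines, 48.9% for NCI-H2087, 48.7% for NCI-H358 and 46.8% for NCI-H441. Its gap to the nearest line was 0.943 of the whole range of the 4 lines, above Dixon's critical value at the 95% level. For H3K4me1 the same ratio was 0.792 and did not pass. Chance marks about 1 in 20 groups that were not chosen by line, whereas these regions were chosen for lacking NKX2-1 in HCC364. The flag is therefore no test of HCC364. The lacking line was lowest in the other classes too. At regions missing only in NCI-H358, H3K27ac was present at 17.2% for NCI-H358 and at 43.5% to 48.2% for the other lines. At regions missing only in NCI-H2087, it was present at 21.0% for NCI-H2087 and at 39.0% to 46.0% for the other lines. At regions missing only in NCI-H441, H3K27ac was present at 29.5% for NCI-H441 and at 50.1% to 52.6% for the other lines.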

How the results depend on the processing

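The number of missing regions was 8168 and fell to 2306 with the 20000 strongest peaks per list. The H3K27ac difference between HCC364 and the other lines (−36.8 points) was −34.4 with the strongest peaks, −32.9 at −log10 q of at least 10, −34.7 with summit windows and −35.1 with the mark within 1 kb. Leaving out each of the other lines gave −37.5 to −36.4 for H3K27ac and −47.8 to −42.8 for H3K4me1. In alternatives chosen after seeing the data, regions with a lowest fold of at least 10 gave −51.5 for H3K27ac and −61.4 for H3K4me1. Over the 4 classes, all alternatives run kept the direction, and leaving out each class gave −29.0 to −23.9 for H3K27ac and −39.4 to −29.6 for H3K4me1. Genes with a missing region fell to 4093 with the 10 kb window, where 10 of 15 list counts and 11 counts at named genes also moved. Every p over the classes was the smallest possible, so it tells nothing of stability.

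Differences in factor shares between missing regions and regions bound in all 4 lines moved more, in points. With the strongest peaks they were 3.27 for FOXA2, 5.51 for SOX2, −17.0 for c-Jun, −5.51 for EP300, −12.8 for RNA polymerase II, −6.99 for H3K4me3 and −3.05 for CTCF. With factor summits within 250 bp they were 5.71 for FOXA1, 9.25 for FOXA2, −18.5 for c-Jun, −7.33 for EP300, −13.4 for RNA polymerase II, −3.70 for H3K4me3 and −11.5 for CTCF. Without regions near an HCC364 peak they were −23.0 for RNA polymerase II and −19.1 for H3K4me3. Distal regions alone, a choice made after seeing the data, reversed FOXA1 (−0.77) and SOX2 (−0.898) and gave 2.51 for FOXA2, −25.6 for c-Jun, −6.89 for EP300, −13.6 for RNA polymerase II, −8.04 for H3K4me3 and −15.0 for CTCF. The cause of these shifts was not tested. No paired analysis was possible because each line and antibody has 1 library and the labels give no shared replicate numbers. With 1 library each, no difference between lines has a replicate check, and depth limits which weak peaks were called.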
